A study of Mus musculus with 12 samples.

Results

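Hair follicle stem cells are described here through 9 marker genes, Lgr5, Lgr6, Lrig1, Sox9, Lhx2, Cd34, Tcf7l1, Nfatc1 and Krt79, chosen by name among the 46078 genes of the count table. All 9 were found, each under a single identifier, and all 9 were among the 14582 genes with enough counts to be tested. RNA came from the skin epidermis of newborn mice, in 12 libraries from 4 genotype groups of 3 mice each, and every group, controls included, carried K14-Cre, a transgene that drives Cre recombinase from the keratin 14 promoter in basal keratinocytes and follicle epithelium. Llgl cKO Trp53 het mice combined K14-Cre and Llgl1/2 flox/flox with Trp53 +/flox: both alleles of Llgl1 and Llgl2, homologues of the Drosophila polarity gene lethal giant larvae, and a single allele of Trp53, the p53 tumour suppressor gene, were floxed. Llgl cKO mice were K14-Cre/Llgl1/2 flox/flox, Trp53 het mice were K14-Cre/Trp53 +/flox, and control mice carried K14-Cre alone. The design asks what the loss of Llgl1 and Llgl2 does to epidermal gene expression, with and without the loss of a Trp53 allele.

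Follicle stem cells sit in compartments of the hair follicle, and each marker belongs mainly to certain of them. In the lower follicle, the bulge and hair germ of the mouse express Lgr5, Sox9, Lhx2, Tcf7l1 and Nfatc1, and in adult skin also Cd34. Further up, Lrig1 marks the junctional zone, Lgr6 the isthmus, with cells of the interfollicular epidermis and sebaceous gland as well, and Krt79 the infundibulum and the ducts that open to the skin surface. LGR5 and LGR6 are receptors for R-spondins, secreted proteins that strengthen Wnt signalling, LRIG1 restrains receptors of the EGF receptor family, SOX9, LHX2, TCF7L1 and NFATC1 are transcription factors, CD34 is a cell surface sialomucin and KRT79 is a type II keratin.

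Among the markers, the R-spondin receptor gene Lgr6 rose with the Llgl cKO genotype, and the other 8 did not pass the test. Lhx2 and Tcf7l1 averaged higher and Sox9 lower in Llgl cKO epidermis, but the groups overlapped from both sides. For each of those genes, libraries outside the Llgl cKO groups lay inside their range, and some Llgl cKO libraries lay inside the range of the others. To set the promoters of the 3 markers with the highest average Llgl effect side by side, the 250 bases before the annotated start of Lgr6 (chr1:135105277-135105526, minus strand), Tcf7l1 (chr6:72789046-72789295, minus strand) and Lhx2 (the upstream start, chr2:38339031-38339280, plus strand) are shown from RefSeq on GRCm38.p6. They read 5′ to 3′ on the strand of the gene, with capitals for a SOX-type motif (ACAATG, searched on both strands) or a TCF/LEF motif (CTTTG and then 2 bases that are each A or T, both strands); these motifs share no letters in the windows shown.
Lgr6: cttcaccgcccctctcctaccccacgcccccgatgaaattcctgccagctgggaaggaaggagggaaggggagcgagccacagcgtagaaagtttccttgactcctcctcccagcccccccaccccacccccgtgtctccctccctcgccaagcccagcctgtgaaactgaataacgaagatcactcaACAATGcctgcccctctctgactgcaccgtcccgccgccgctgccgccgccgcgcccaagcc
Tcf7l1: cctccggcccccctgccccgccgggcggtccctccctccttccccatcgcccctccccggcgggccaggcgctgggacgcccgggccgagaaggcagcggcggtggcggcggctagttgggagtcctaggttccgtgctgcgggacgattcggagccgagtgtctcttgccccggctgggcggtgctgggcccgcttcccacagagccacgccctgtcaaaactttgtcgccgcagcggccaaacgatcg
Lhx2: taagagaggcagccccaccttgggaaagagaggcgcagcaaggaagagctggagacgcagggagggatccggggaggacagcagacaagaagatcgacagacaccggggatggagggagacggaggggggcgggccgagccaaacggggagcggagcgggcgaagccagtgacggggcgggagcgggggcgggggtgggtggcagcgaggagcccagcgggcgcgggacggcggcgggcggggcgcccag
The Lgr6 window held ACAATG at position -62 relative to the start and no TCF/LEF motif, and the Tcf7l1 and Lhx2 windows held neither. Of 32851 such windows in the mouse table, 10.7% held ACAATG and 14.8% a TCF/LEF motif. GC content was 65.2% for Lgr6, 73.6% for Tcf7l1 and 72.8% for Lhx2, against a median of 52.4% over all windows. RefSeq promoter entries were matched for 6 of the 9 markers.

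Library totals ran from 6738720 to 14509507 counts. Levels are given as CPM, counts scaled to a common library size that was adjusted by the trimmed mean of M values (TMM), and error as SD with n = 3 mice. The floxed gene Llgl2 stood at 6.12 to 12.4 CPM in the 6 Llgl cKO and Llgl cKO Trp53 het libraries, against 65.4 to 109.9 CPM in the 6 others. Llgl1, although floxed, was higher, at 187 to 280 CPM against 115 to 173 CPM (log2 change 0.79 in the average Llgl effect, edgeR adjusted p = 0.0072), and a total per gene does not show which exons were read. Trp53 was at 98.3, 67.8 and 65.9 CPM in Llgl cKO Trp53 het and at 61.8, 60.9 and 115 CPM in Trp53 het, against 108.9 to 130.5 CPM in the 6 libraries of Llgl cKO and control, so the library labelled Trp53 het 3 was inside the range of mice without the floxed Trp53 allele. Control 3 and Trp53 het 3 stood apart from the rest of their groups and resembled each other more closely than any other 2 libraries did (chi-square per gene of 2.99, against 7.18 for the next closest, control 2 and Trp53 het 2). They differed by more than counting noise, and each is analysed under its own label. The summed level of 20 G2 and M phase genes was 1247 to 1583 CPM in Llgl cKO Trp53 het and 1057 to 1145 CPM in Llgl cKO. It was 2022 CPM in Trp53 het 3 and 1737 CPM in control 3, against 285 to 418 CPM in the other 4 libraries of those groups. Keratinocyte markers were abundant, as the labelled tissue has them, with 12 genes of the basal layer summing to 15365 to 20901 CPM and 10 of the layers above to 63365 to 120261 CPM over the 12 libraries.

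Per length of annotated exons, as FPKM (CPM divided by exon length in kilobases), Krt79 was the most abundant marker, with a mean of 320 FPKM over 12 libraries (247 to 392). Lrig1 followed at 45.8 FPKM (34.9 to 51.0), Lgr6 at 35.6 (26.0 to 46.9), Lhx2 at 25.0 (12.4 to 39.8) and Sox9 at 21.2 (15.6 to 29.2), and each of these 4 overlapped its neighbour in the order. Nfatc1, at 10.9 FPKM (9.22 to 13.4), lay below Sox9 without overlap. Tcf7l1 had 7.03 FPKM (4.53 to 9.86) and Lgr5 3.76 (2.31 to 6.06), again overlapping neighbours, and Cd34 was lowest at 0.151 FPKM (0.0760 to 0.287). The steps from Krt79 to Lrig1, from Sox9 to Nfatc1 and from Lgr5 to Cd34 were thus the ones at which ranges did not overlap.

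**Figure D1:**
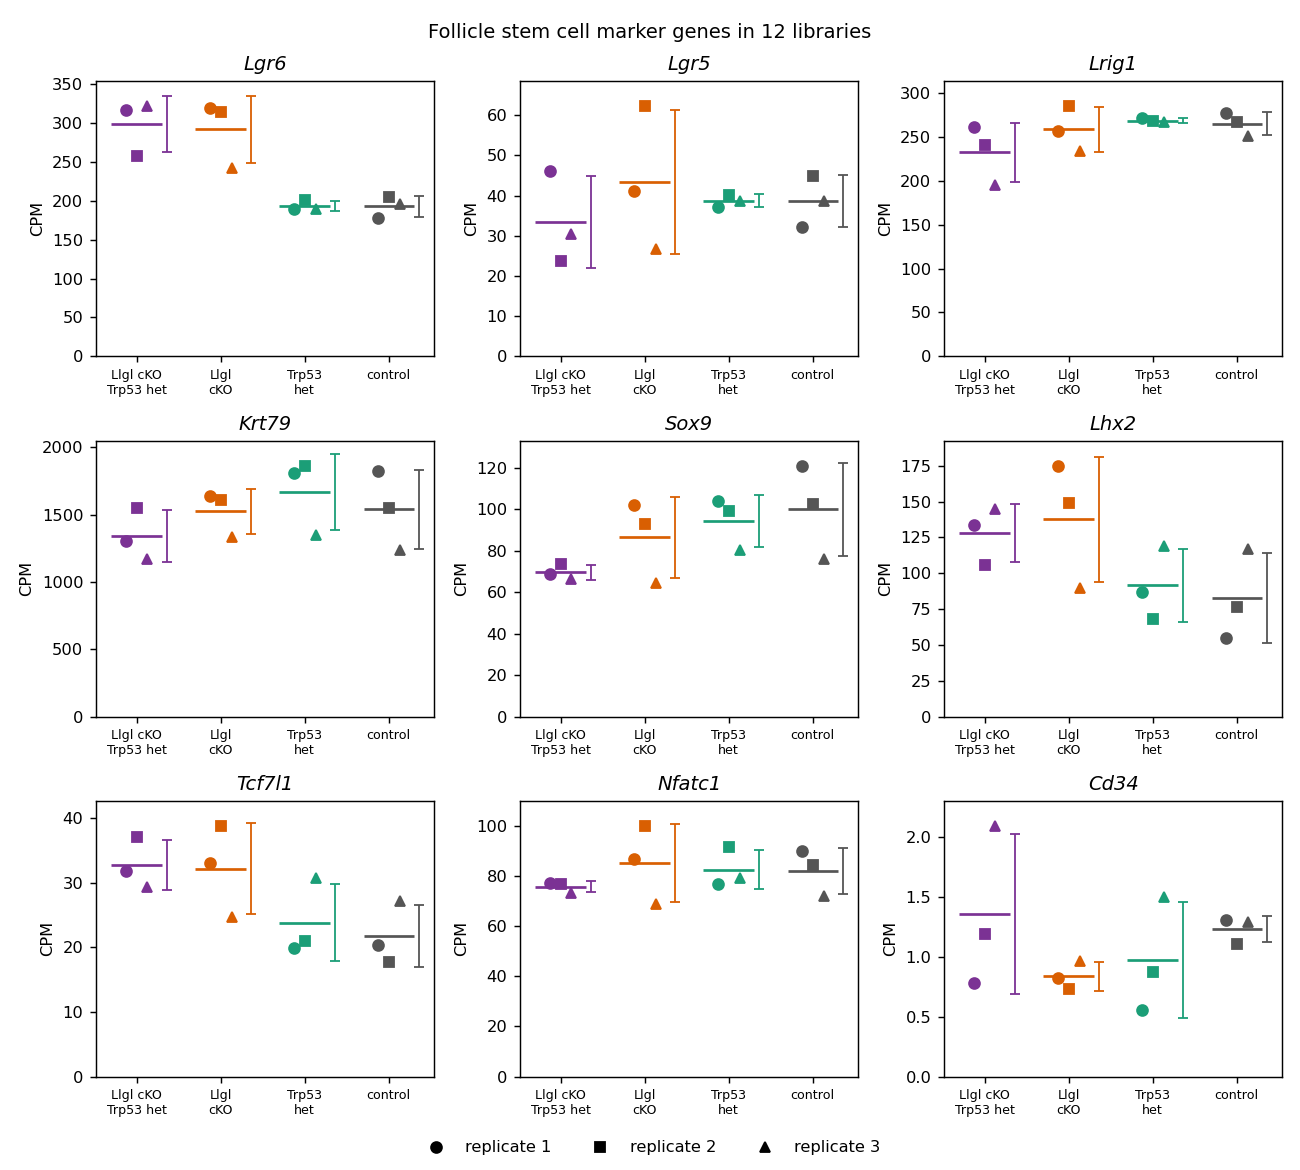
Each panel plots a marker gene in CPM on a linear axis from 0, with points for the 12 libraries by genotype group, a line for the group mean and a bar for its SD (n = 3). The 6 Lgr6 points of both Llgl cKO groups lie between 242 and 321 CPM, above the 6 others at 178 to 205 CPM, while the groups overlap when pooled in this way for the other 8 genes.

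Lgr6, on chromosome 1 (134983301 to 135105276, minus strand, GRCm38), was high in every library with floxed Llgl1/2. It had 316, 257 and 321 CPM in Llgl cKO Trp53 het replicates 1 to 3 and 319, 314 and 242 CPM in Llgl cKO, against 190, 201 and 190 CPM in Trp53 het and 178, 205 and 196 CPM in control. The lowest library of the Llgl cKO groups was above the highest of the others, which held for 1.29% of all tested genes in the upward direction. Averaged over both Trp53 genotypes, Lgr6 was at 295 ± 35.5 CPM with Llgl1/2 floxed and 193 ± 9.51 CPM without (SD, n = 6 each), a fold of 1.52 (95% interval 1.32 to 1.76) and a log2 change of 0.61 ± 0.10 (SE; edgeR quasi-likelihood test with Benjamini-Hochberg adjustment, adjusted p = 0.0088). It was 1 of 9 markers called in that average Llgl effect, where 3.33% of all tested genes were called (1.18% higher and 2.15% lower). That call held in all 17 alternative analyses run, with log2 changes from 0.57 to 0.67 and adjusted p up to 0.033.

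The separate comparisons gave the same size for Lgr6 with less certainty. Its log2 change was 0.59 ± 0.14 in Llgl cKO against control (SE, edgeR adjusted p = 0.18), 0.62 ± 0.14 in Llgl cKO Trp53 het against Trp53 het (adjusted p = 0.049) and 0.63 ± 0.14 in Llgl cKO Trp53 het against control (adjusted p = 0.0504). The first and last share the control libraries and the middle and last share the Llgl cKO Trp53 het libraries. The middle one was called, but 14 of its 18 alternatives ended the call, with adjusted p up to 0.18. Among these was the removal of any 1 of 10 libraries, that is, of each library except control 3 and Llgl cKO 3. DESeq2 called Lgr6 in each of these comparisons (adjusted p = 0.0071, 0.00097 and 0.00080). The interaction, which tests whether the Llgl effect differs between Trp53 genotypes, was 0.03 on the log2 scale for Lgr6 (95% interval -0.39 to 0.45, edgeR adjusted p = 1.0).

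The levels of other marker lists are set beside Lgr6 here. In Trp53 het 3 and control 3, where the G2 and M phase genes summed highest of all libraries, Lgr6 was at 190 and 196 CPM, inside the 178 to 205 CPM of the other 4 libraries. Without those 2 libraries its average log2 change was again 0.61 (adjusted p = 0.0052). Fibroblast markers, 10 genes, summed to 234 to 320 CPM in Llgl cKO Trp53 het and 184 to 283 CPM in Llgl cKO, against 79.4 to 203 CPM in Trp53 het and 66.4 to 207 CPM in control. Trp53 het 3 and control 3 were the high ends of their groups there, at 203 and 207 CPM. The single genes did not follow the sum. Averaged per gene on the log2 scale, the list was highest in Trp53 het 3 and control 3 (1.09 and 0.78 above the gene means). Of its 7 tested genes, 4 were above 0 in the average Llgl effect and 0 were called, where 3.33% of all tested genes were. There were 3 above 0 in Llgl cKO Trp53 het against Trp53 het and 5 in Llgl cKO against control. The part of proliferation and of fibroblast content in the Lgr6 difference was not tested. In bulk tissue, fewer or more cells of a type and less or more RNA per cell cannot be told apart.

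**Figure D2:**
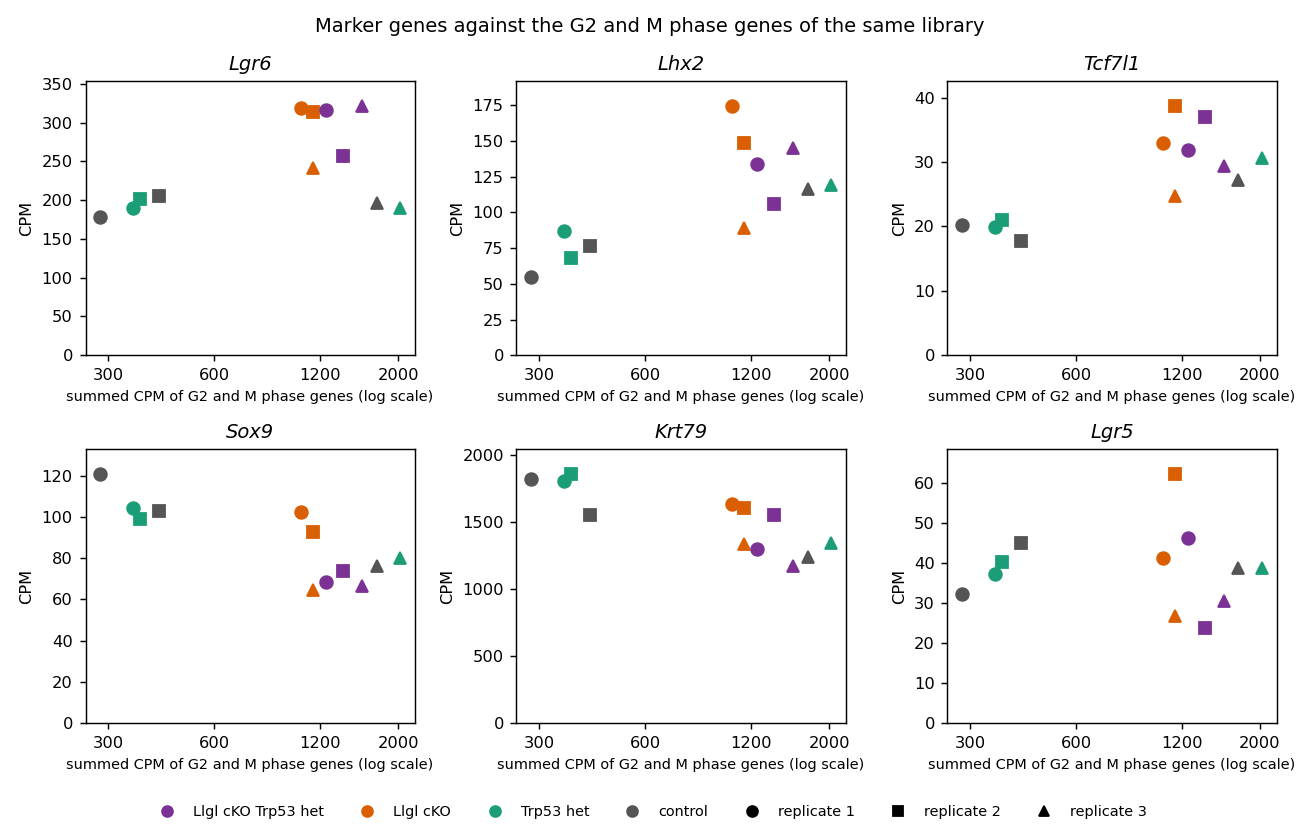
Panels for 6 markers plot CPM (linear axis from 0) against the summed CPM of 20 G2 and M phase genes in the same library (log axis), coloured by genotype group and shaped by replicate. Trp53 het 3 and control 3, the triangles at the far right, sit at 190 and 196 CPM of Lgr6, below all Llgl cKO libraries, but among those libraries for Lhx2, Tcf7l1, Sox9 and Krt79.

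Lgr5, the paralogue of Lgr6 that marks the lower bulge, hair germ and outer root sheath base, did not move with it. Its levels were 46.1, 23.7 and 30.4 CPM in Llgl cKO Trp53 het and 41.2, 62.3 and 26.8 CPM in Llgl cKO, against 37.2, 40.3 and 38.8 CPM in Trp53 het and 32.2, 45.0 and 38.8 CPM in control. Both Llgl cKO groups spread on either side of the others. The coefficient of variation over 3 libraries was 34.4% for Llgl cKO Trp53 het, 41.1% for Llgl cKO, 3.94% for Trp53 het and 16.5% for control, a difference in spread that was not tested. The average Llgl effect on Lgr5 was -0.02 on the log2 scale, with a 95% interval from -0.47 to 0.43 (edgeR adjusted p = 0.97). As a fold, that interval ran from 0.721 to 1.34 and did not reach the 1.52 of Lgr6.

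Lhx2, a LIM-homeodomain factor of the placode and bulge, averaged as large a difference as Lgr6 with a wider spread. It had 134, 106 and 145 CPM in Llgl cKO Trp53 het and 175, 149 and 89.4 CPM in Llgl cKO, against 87.2, 68.3 and 119 CPM in Trp53 het and 54.5, 76.5 and 117 CPM in control. Replicate 3 of Trp53 het and of control lay inside the range of the Llgl cKO groups, and Llgl cKO 3 lay inside the range of the others. The average log2 change was 0.61 ± 0.22 (SE) and was not called (edgeR adjusted p = 0.16). Without control 3 and Trp53 het 3 it was 0.89 and was called (adjusted p = 0.011). Those libraries were chosen with the data known and are the ones that overlapped, so this call is no separate support for a change. Over all tested genes, leaving them out gave 2334 calls in the average Llgl effect, against 485 with all libraries.

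Tcf7l1, which encodes a TCF factor that mainly represses Wnt targets in bulge cells, ran in parallel with Lhx2. Its levels were 31.9, 37.0 and 29.3 CPM in Llgl cKO Trp53 het and 33.0, 38.7 and 24.7 CPM in Llgl cKO, against 19.9, 20.9 and 30.6 CPM in Trp53 het and 20.3, 17.8 and 27.2 CPM in control. Every Llgl cKO Trp53 het library was above every control library, as in 7.87% of all tested genes, yet the log2 change of 0.59 in that comparison was not called (edgeR adjusted p = 0.26). The average Llgl effect was 0.51 ± 0.16 (SE, adjusted p = 0.11). It passed with DESeq2 (adjusted p = 0.0498), without Trp53 het 3 (0.62, adjusted p = 0.038), and without control 3 and Trp53 het 3 together (0.72, adjusted p = 0.0052). Over all tested genes those settings gave 1004, 697 and 2334 calls, against 485 in the main fit. The libraries left out were the highest of their groups for Tcf7l1.

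Sox9, an HMG-box factor needed to set up and maintain follicle stem cells, tended the other way. It was at 68.6, 73.8 and 66.5 CPM in Llgl cKO Trp53 het and 102, 92.7 and 64.6 CPM in Llgl cKO, against 104, 99.1 and 80.2 CPM in Trp53 het and 121, 103 and 76.2 CPM in control. The 3 Llgl cKO Trp53 het libraries were below all Trp53 het libraries and below all control libraries, patterns shared by 10.7% and 9.2% of all tested genes. Neither difference was called, at -0.44 ± 0.19 and -0.52 ± 0.19 on the log2 scale (SE, edgeR adjusted p = 0.31 and 0.25). The average Llgl effect of -0.32 ± 0.14 was not called either (adjusted p = 0.24), and reached -0.46 (adjusted p = 0.027) without control 3 and Trp53 het 3. Those libraries had the lowest Sox9 of their groups, and leaving them out gave 2334 calls over all tested genes, against 485. In control 3 and Trp53 het 3, the libraries with the highest G2 and M phase sums, Lhx2 and Tcf7l1 were higher and Sox9 lower than in the other 4 libraries of their groups. The part of proliferation in these differences was not tested.

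**Figure D3:**
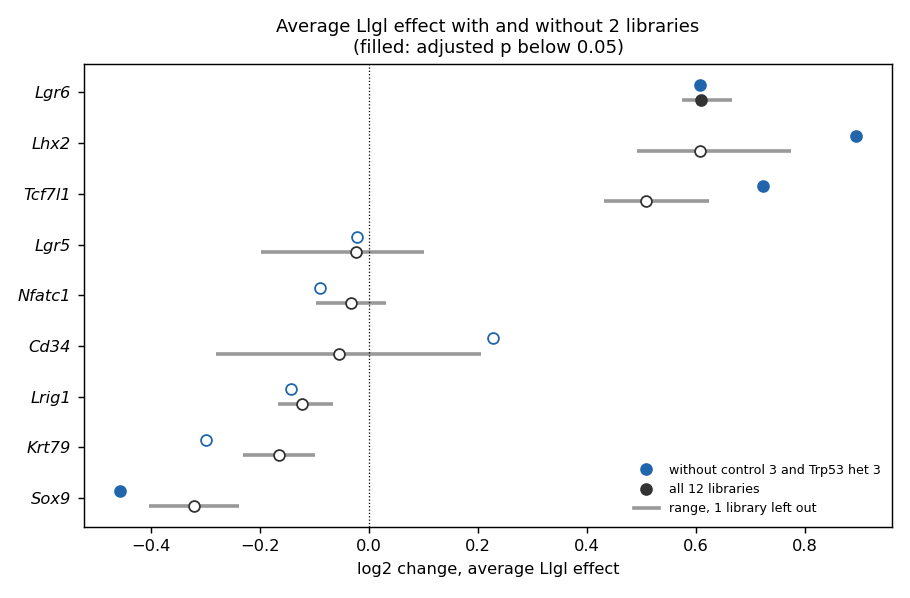
The log2 change of each marker in the average Llgl effect is plotted for all 12 libraries (black), without control 3 and Trp53 het 3 (blue), and as the range when each library is left out in turn (grey bar), filled where the adjusted p is below 0.05. Lgr6 stays at 0.61 with and without the 2 libraries, whereas Lhx2 moves to 0.89, Tcf7l1 to 0.72 and Sox9 to -0.46 without them. For those 3 genes the 2 libraries lie inside the range of the Llgl cKO groups.

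Among the remaining markers of the upper follicle, Lrig1 had nearly the same level in all groups. It was at 261, 241 and 195 CPM in Llgl cKO Trp53 het and 256, 285 and 234 CPM in Llgl cKO, against 271, 267 and 267 CPM in Trp53 het and 277, 267 and 251 CPM in control. The Llgl cKO Trp53 het libraries lay below all 3 of Trp53 het, with a log2 change of -0.21 (edgeR adjusted p = 0.47), and the average Llgl effect was -0.12 (95% interval -0.32 to 0.07, adjusted p = 0.51). Krt79 was at 1302, 1551 and 1173 CPM in Llgl cKO Trp53 het and 1637, 1607 and 1335 CPM in Llgl cKO, against 1808, 1861 and 1347 CPM in Trp53 het and 1825, 1553 and 1241 CPM in control. Replicate 3 was the lowest library in each of the 4 groups, and the groups overlapped. The average Llgl effect on Krt79 was -0.16 (95% interval -0.45 to 0.12, adjusted p = 0.56).

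Nfatc1, a factor that keeps adult bulge cells quiescent downstream of BMP signalling, was also even across genotypes. It averaged 75.8 ± 2.26 CPM in Llgl cKO Trp53 het, 85.2 ± 15.6 CPM in Llgl cKO, 82.5 ± 7.80 CPM in Trp53 het and 82.1 ± 9.14 CPM in control (SD, n = 3). The average Llgl effect was -0.03 with a 95% interval from -0.25 to 0.18 (edgeR adjusted p = 0.90), so a change of the size of that in Lgr6 lay outside it.

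Cd34, which marks the adult mouse bulge and also blood vessel endothelium and blood progenitors, was at the edge of detection. Raw counts were 10, 14 and 25 in Llgl cKO Trp53 het and 12, 10 and 11 in Llgl cKO, against 6, 6 and 20 in Trp53 het and 8, 13 and 16 in control. The Llgl cKO libraries, at 0.825, 0.729 and 0.969 CPM, were below the control libraries at 1.31, 1.11 and 1.29 CPM, a pattern shared by 5.31% of all tested genes, and the difference was not called (log2 change -0.55, 95% interval -1.53 to 0.44, edgeR adjusted p = 0.95). Endothelial markers were also scarce. The 12 genes of that list summed to 2.78 to 8.04 CPM over the libraries. Of these, Cdh5 had 0 counts in 9 of 12 libraries, whereas Pecam1 was read in every library, at 2 to 10 counts. The average Llgl effect on Cd34 had a fold interval from 0.600 to 1.54, which includes the 1.52 of Lgr6. What part of the Cd34 reads came from endothelium was not tested.

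**Figure D4:**
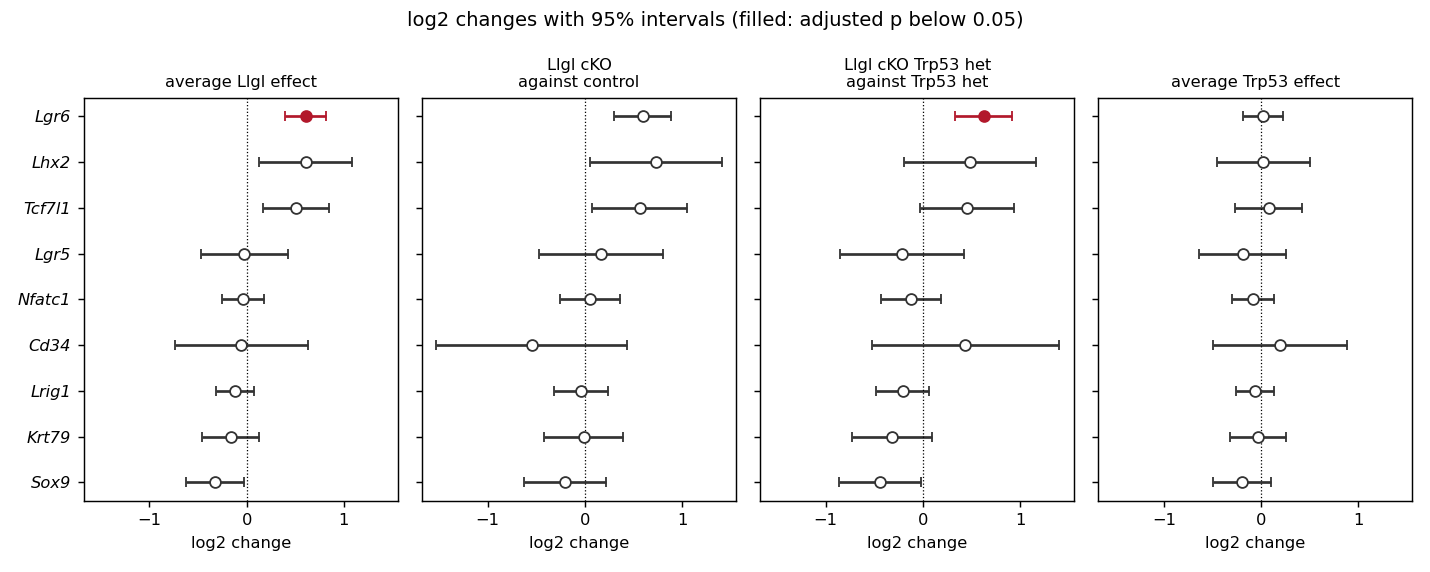
Points give the log2 change of each marker in 4 comparisons, bars the 95% interval of the fitted model, and filled points an adjusted p below 0.05. Lgr6 is filled in the average Llgl effect (0.61) and in Llgl cKO Trp53 het against Trp53 het (0.62), and in the average Trp53 effect all 9 intervals include 0.

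Counting over the markers, 0 of 9 were called in Llgl cKO against control, where 0.226% of all tested genes were called, 1 of 9 in Llgl cKO Trp53 het against Trp53 het (1.36% of all), and 0 of 9 in Llgl cKO Trp53 het against control (1.25% of all), all by edgeR. Beside the counts of 0, unadjusted p was below 0.05 for 3 markers in Llgl cKO against control (6.31% of all) and for 3 in Llgl cKO Trp53 het against control (13.9% of all), and DESeq2 called 1 marker, Lgr6, in each. Groups did not overlap for 2 markers in Llgl cKO against control (Lgr6 higher, as in 4.49% of all tested genes, and Cd34 lower, as in 5.31%), for 3 in Llgl cKO Trp53 het against Trp53 het (Lgr6 higher, as in 9.75%, with Lrig1 and Sox9 lower, as in 10.7%) and for 3 in Llgl cKO Trp53 het against control (Lgr6 and Tcf7l1 higher, as in 7.87%, and Sox9 lower, as in 9.2%). The median log2 change of the 9 markers was 0.06, -0.12 and -0.11 in these comparisons and -0.03 in the average Llgl effect, against medians over all tested genes of -0.01, 0.00, -0.01 and 0.00. The markers showed no common direction: 3 of 9 were above 0 in the average Llgl effect, where 49.6% of all tested genes were.

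Loss of a Trp53 allele, averaged over both Llgl genotypes, was not accompanied by a called change in any marker. Lgr6 averaged 246 ± 61.7 CPM in the Trp53 heterozygous groups and 242 ± 61.0 CPM in the others (SD, n = 6 each), with a log2 change of 0.02 and a 95% interval from -0.19 to 0.23. The largest marker difference by size was -0.20 for Sox9 (95% interval -0.50 to 0.10) and the widest interval that of Cd34, from -0.49 to 0.88 around 0.20. In this effect 0% of all tested genes were called by edgeR and 0 by DESeq2, 2.17% (316 genes) had an unadjusted p below 0.05, and 0 of the 9 markers did. The interaction had 0% called by edgeR, 0 by DESeq2 and 2.94% (428 genes) at an unadjusted p below 0.05, again with 0 markers among them. The largest interaction values were 0.98 for Cd34 (95% interval -0.39 to 2.36) and -0.38 for Lgr5 (-1.28 to 0.52), both with adjusted p = 1.0. These values describe the groups as labelled, with Trp53 het 3 included.

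Genes of the R-spondin and Wnt pathway in which LGR5 and LGR6 act were examined as a list of 18, of which 15 were tested. In the average Llgl effect, where 1.18% of all tested genes rose and 2.15% fell, 3 of the list rose and 0 fell, with a median log2 change of 0.23 against 0.00 over all tested genes. Sp5, a direct Wnt target, averaged 8.27 ± 1.89 CPM in Llgl cKO Trp53 het, 7.59 ± 0.561 CPM in Llgl cKO, 2.14 ± 1.22 CPM in Trp53 het and 2.88 ± 1.27 CPM in control (SD, n = 3), a log2 change of 1.63 (edgeR adjusted p = 0.013). Lef1, which encodes an activating partner of beta-catenin, rose by 0.92 (adjusted p = 0.027) and the feedback inhibitor Nkd1 by 0.84 (adjusted p = 0.032). The third LGR receptor, Lgr4, changed by 0.23 and the feedback gene Axin2 by 0.21, both uncalled (adjusted p = 0.46 and 0.54), and these were singled out after their values were seen. Of 19 tested genes of the bulge and hair germ besides the 9 markers, 2 rose and 0 fell with a median of 0.11. Those 2 were Fst, an inhibitor of activin and BMP ligands (log2 change 0.55, adjusted p = 0.0075), and the Wnt ligand gene Wnt10b (0.44, adjusted p = 0.0099), and Krt15, a bulge keratin that basal epidermis also expresses, changed by -0.03 (adjusted p = 0.95). Of 27 tested for the hair shaft or inner root sheath, 19 fell and 0 rose in the average Llgl effect (median -2.89), among them the hair keratin gene Krt33b (-3.82, adjusted p = 0.014) and trichohyalin, Tchh (-2.95, adjusted p = 0.014). Of 14 tested sebaceous gland genes 7 fell and 0 rose (median -0.999), among them the lipid droplet gene Plin2 (-0.93, adjusted p = 0.015) and the wax synthase gene Awat2 (-1.55, adjusted p = 0.015). By edgeR, 16 of the hair shaft and root sheath list fell in Llgl cKO Trp53 het against Trp53 het (median -4.28), where 1.36% of all tested genes were called. In Llgl cKO against control 0 fell (median -1.38), with 0.226% of all tested genes called. For the sebaceous list the numbers were 8 (median -1.57) and 0 (median -0.31). The interaction, which tests this difference gene by gene, called 0 genes of either list (medians -2.82 and -0.91) and 0% of all tested genes. The difference was not tested for a list as a whole. In the separate comparisons, edgeR called Sp5 only in Llgl cKO Trp53 het against Trp53 het (adjusted p = 0.046). Lef1 was called in none of them (edgeR adjusted p from 0.066 to 0.69). In Llgl cKO Trp53 het against Trp53 het, 2 genes of the bulge and hair germ list rose and 1 fell, with 1.36% of all tested genes called. Among lists of other cells, 2 of 11 T cell markers fell in the average Llgl effect (median -1.89), and the 2 tested adipocyte markers both fell (median -3.39). Of 20 G2 and M phase genes 0 were called, with 20 above 0 and a median of 0.61. Their part in the marker results was not tested. Control 3 and Trp53 het 3 lay inside the Llgl cKO range for several list sums. The hair shaft and root sheath list summed to 1994 and 2815 CPM there, against 1442 to 4291 CPM in Llgl cKO. It had 407 to 821 CPM in Llgl cKO Trp53 het and 5576 to 8383 CPM in the remaining libraries. The R-spondin list had 2054 and 1991 CPM, against 1901 to 2203 CPM in Llgl cKO. The adipocyte list had 2.10 and 2.79 CPM, against 1.76 to 3.86 CPM.

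The genes whose log2 CPM tracked each marker most closely over the 12 libraries, out of 13159 compared, were led for Lgr6 by Runx2, a Runt transcription factor (Pearson r = 0.96, Spearman rho = 0.90), and Mgat5, an N-glycan branching enzyme (0.93 and 0.82). For Lgr5 the closest were Pdzrn3 (0.97 and 0.96) and Dclk3 (0.94 and 0.85). Lhx2 was matched by Inpp5j (0.96 and 0.93) and by Gli1, a Hedgehog-responsive transcription factor (0.95 and 0.97), and Tcf7l1 by Grk6 (0.93 and 0.84) and Ulk4 (0.93 and 0.94). Sox9 was closest to Acvr1, a BMP and activin type I receptor gene (0.97 and 0.93), and Serinc2 (0.95 and 0.97), and Krt79 to Clcn7 (0.95 and 0.97) and Tcirg1 (0.95 and 0.93), a chloride transporter and a proton pump subunit of lysosomes. Lrig1 was closest to Smtn (0.94 and 0.93) and Adgra3 (0.91 and 0.88), Nfatc1 to Scarb2 (0.89 and 0.84) and Gmeb1 (0.89 and 0.90), and Cd34 to Oaf (0.91 and 0.85) and Pcbd2 (0.85 and 0.89). No gene was closest to more than 1 marker. These are descriptions: the points share libraries and genotype groups, the genes were picked for the highest value, and no p is given.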

How the data were processed

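The authors deposited 1 table of raw, unnormalized counts (46078 genes, 12 libraries, whole numbers). Per the labels' protocols, the libraries were stranded mRNA preparations. STAR, featureCounts 1.6.4, DESeq2 2.11.40.8 and GRCm38 are named in the submitters' processing notes, and the annotation release, strand setting and filters are not given in the sources used here. Genes overlapping 6 of the markers on either strand (Lgr5, Lrig1, Lhx2, Cd34, Tcf7l1 and Nfatc1) can share reads with them, and Lgr6, Sox9 and Krt79 overlap none. The test used edgeR 4.0.16 under R 4.3.3: TMM scaling, filterByExpr over the 4 groups (minimum count 10), and 1 robust quasi-likelihood fit to the 12 libraries by group, with 8 residual degrees of freedom. Adjustment by Benjamini-Hochberg ran over the 14582 genes tested, and a gene was called below 0.05. The biological coefficient of variation was 23.8%. SEs of log2 changes are from the fit, and FPKM used exon lengths of a GENCODE annotation of GRCm38, which matched 14532 of the identifiers tested. Replicates are separate mice by the stated design, so p-values measure the spread between mice. The steps were tested on simulated data. The planted changes there were larger than that of Lgr6, and no library was made to stand apart from its group. The 9 markers and the 20 other gene lists were chosen with earlier results of these data known, as were libraries left out together. Named besides the markers are the targeted genes, the 2 called genes of smallest p in lists described, and the 2 genes most correlated with each marker (log2 CPM, prior count 2), without predicted or clone names. Nkd1, Lgr4, Axin2 and Krt15 were added after their values were seen. Alternatives were DESeq2 1.42.0, its size factors in edgeR, no low-count filter, only the groups compared, a replicate block, control 3 and Trp53 het 3 left out, and each library left out in turn.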

Additional observations from a re-analysis of the deposited data

How the results depend on the processing

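Of 945 values of single markers under the alternatives, 877 kept their direction and side of the threshold, 11 became called, 14 lost the call (all Lgr6 in Llgl cKO Trp53 het against Trp53 het) and 43 turned direction, none of them called. In Llgl cKO Trp53 het against Trp53 het, the number of markers called was 0 with DESeq2 size factors, without a low-count filter, with only the groups compared and with the replicate block; it ranged over 0 to 1 when each library was left out in turn. DESeq2 called 1 marker in Llgl cKO against control, 1 in Llgl cKO Trp53 het against control and 2 in the average Llgl effect. Without control 3 and Trp53 het 3 the numbers were 3 in Llgl cKO Trp53 het against control and 4 in the average Llgl effect. Leaving out each library gave 0 to 1 and 1 to 2 in these comparisons.

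Over all tested genes, DESeq2 called 115 in Llgl cKO against control (33 by edgeR), 704 in Llgl cKO Trp53 het against Trp53 het (198), 631 in Llgl cKO Trp53 het against control (182) and 1004 in the average Llgl effect (485). With only the groups compared, the comparisons of Llgl cKO Trp53 het with Trp53 het and with control gave 117 and 49, and with the replicate block 376 and 347. When control 3 and Trp53 het 3 were left out, the 4 comparisons gave 413, 1088, 1139 and 2334, and 2 in the average Trp53 effect (0 with all libraries). Leaving out each library gave 15 to 42, 24 to 322, 25 to 351 and 164 to 697. The fewest calls came without control 2 (15, 25 and 164) and, in the comparison with Trp53 het, without Trp53 het 1 or Llgl cKO Trp53 het 3 (24 each). The most came without Trp53 het 3 (42, 322 and 697) and without control 3 (322, 351 and 697). The cause was not tested.

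Direction turned as follows, in log2 changes. In Llgl cKO against control, Krt79 (-0.01) was 0.014 without a low-count filter, Nfatc1 (0.06) was -0.030 without control 3 and Trp53 het 3, and with each library left out Lgr5 ran from -0.19 to 0.42, Lrig1 from -0.11 to 0.034, Nfatc1 from -0.074 to 0.19 and Krt79 from -0.15 to 0.13. In the average Llgl effect Cd34 was 0.23 without control 3 and Trp53 het 3, and with each library left out Lgr5 ran from -0.20 to 0.10, Cd34 from -0.28 to 0.20 and Nfatc1 from -0.098 to 0.031. Cd34 also ran from -0.014 to 0.96 against Trp53 het and from -0.31 to 0.42 against control in Llgl cKO Trp53 het. In the average Trp53 effect Lhx2 was -0.00048 with the replicate block and Cd34 -0.044 without control 3 and Trp53 het 3, and the ranges were -0.037 to 0.071 for Lgr6, -0.097 to 0.19 for Lhx2, -0.065 to 0.34 for Cd34, -0.036 to 0.18 for Tcf7l1 and -0.10 to 0.038 for Krt79. In the interaction Lgr6 ran from -0.10 to 0.12 and Tcf7l1 from -0.31 to 0.12.

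Same-numbered replicates of Trp53 het and control deviated together in every pair (correlations of deviations across genes 0.62, 0.21 and 0.82). So did control 1 with Trp53 het 2 (0.46) and control 2 with Trp53 het 1 (0.18). The remaining pairs of these groups, each with a replicate 3, ran from -0.74 to -0.26. These correlations therefore cannot tell whether the numbers pair these mice. By chi-square per gene, each control library was closest to the Trp53 het library of its own number (12.5, 7.18 and 2.99). The closest other control was at 47.6, 33.9 and 33.9. The main fit used no pairing. In the average Trp53 effect the replicate block gave 0 calls, as the unblocked fit did. For Llgl cKO with control the same-numbered pairs were at 0.12, 0.07 and 0.13, and the other pairs at -0.11 to 0.0054. For Llgl cKO Trp53 het not every same-numbered pair deviated together (-0.13, -0.12 and 0.18 with control, -0.10, 0.16 and 0.17 with Trp53 het). With the replicate block, Lgr6 had an adjusted p of 0.054 in Llgl cKO Trp53 het against Trp53 het (edgeR) and was still called in the average Llgl effect. Counts of Cd34 were low, at 6 to 25 per library.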

Other observations

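Genes that act beside the markers are given here for the average Llgl effect, where 1.18% of all tested genes rose and 2.15% fell. Of 12 tested genes of the upper follicle besides Lrig1, Lgr6 and Krt79, 1 rose and 1 fell, with a median log2 change of -0.24 against 0.00 over all tested genes. The riser was Fst, which the bulge and hair germ list also holds, at 139 ± 5.55 CPM in Llgl cKO Trp53 het and 126 ± 7.84 CPM in Llgl cKO, against 93.3 ± 10.3 CPM in Trp53 het and 87.6 ± 11.5 CPM in control (SD, n = 3). The other was the beta-defensin gene Defb6, at 0.0843 ± 0.0837 CPM in Llgl cKO Trp53 het and 0.374 ± 0.181 CPM in Llgl cKO, against 2.79 ± 2.07 CPM in Trp53 het and 2.23 ± 1.93 CPM in control, with a log2 change of -3.66 (edgeR adjusted p = 0.022).

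None of the 6 tested receptors and relatives of LRIG1 (Egfr, Erbb2, Erbb3, Met, Lrig2 and Lrig3), of 8 tested genes around NFATC1 and BMP signalling, or of 2 tested partners of SOX9 and LHX2 was called. Their median log2 changes were 0.13, 0.02 and 0.19, and a missing call does not show that a gene was unchanged.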
